A study of Rattus norvegicus with 12 samples.

Results

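The 4 genes *Apoe*, *Clu*, *Abca1* and *Lpl*, which move lipid between cells, were followed in the retinas of Royal College of Surgeons (RCS) rats at postnatal day 21 (p21) and p60. The genes were chosen by Ensembl identifier and chromosome, and all 4 of the 4 identifiers were found among the 32883 genes counted. Poly(A)-enriched RNA of whole retina was sequenced in 12 libraries, with 3 for each combination of age and line. The WT line has the genotype RCS-p+ and its libraries are labelled male, and the immunodeficient athymic line has the genotype RCS-p+/Foxn1mu and its libraries are labelled female, so line and labelled sex cannot be told apart. All RCS rats carry a *Mertk* mutation that stops the pigment epithelium from clearing shed photoreceptor outer segments, and *Foxn1* is required for the thymus. No retina without the *Mertk* mutation was analysed here, so the change from p21 to p60 holds both age and degeneration. In whole retina, a change in the share of cells of a type and a change in RNA per cell cannot be told apart. This holds for rises as well as for falls.

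The retina is rich in lipid, and photoreceptors renew membrane daily. Glial cells supply and take back lipid in lipoprotein particles. ApoE and clusterin (also called ApoJ, encoded by *Clu*) are the protein part of such particles, and clusterin is also an extracellular chaperone. ABCA1 is the membrane transporter that loads cholesterol and phospholipid onto apolipoproteins, and lipoprotein lipase (*Lpl*) releases fatty acids from the triglycerides the particles carry.

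On the Rnor_6.0 build, *Apoe* (ENSRNOG00000018454) lies on chromosome 1 from 80612895 to 80617057 on the minus strand, with 1555 exonic bases in 6 blocks. *Clu* (ENSRNOG00000016460) lies on chromosome 15 from 42640146 to 42665857 on the plus strand, with 1877 exonic bases in 10 blocks. *Abca1* (ENSRNOG00000018126) lies on chromosome 5 from 69857771 to 69983015 on the minus strand, with 10339 exonic bases in 51 blocks. *Lpl* (ENSRNOG00000012181) lies on chromosome 16 from 22537056 to 22561496 on the minus strand, with 3671 exonic bases in 10 blocks. Only *Abca1* shares exonic bases with another annotated gene, 263 bases or 2.54% of its exonic length, and that gene, on the opposite strand, had 0 to 4 counts per library. The shared bases are a small part of *Abca1*, and how reads in them were assigned is not given.

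RefSeq promoter sequence (GRCr8 build) was matched for 2 of the 4 genes, *Apoe* and *Abca1*, and is shown because both genes were higher at p60 in both lines. The 250 bases before the gene start are given 5′ to 3′ on the gene's strand, at chr5:72596474-72596723 (minus strand) for *Abca1* and at chr1:88484700-88484949 (minus strand) for the second of 3 *Apoe* starts. Capitals mark matches on either strand to a TATA box (TATAAA), a GC box (GGGCGG) or an E-box (CACGTG).
Abca1: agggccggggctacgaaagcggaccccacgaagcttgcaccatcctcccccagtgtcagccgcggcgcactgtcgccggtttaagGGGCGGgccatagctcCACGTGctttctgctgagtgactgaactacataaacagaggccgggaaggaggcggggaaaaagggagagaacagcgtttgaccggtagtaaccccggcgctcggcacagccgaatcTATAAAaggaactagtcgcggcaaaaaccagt
Apoe: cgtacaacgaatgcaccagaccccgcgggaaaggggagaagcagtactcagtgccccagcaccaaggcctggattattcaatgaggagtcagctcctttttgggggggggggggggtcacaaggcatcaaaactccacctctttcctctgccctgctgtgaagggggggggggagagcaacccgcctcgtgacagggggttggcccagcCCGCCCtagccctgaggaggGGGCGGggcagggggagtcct
The *Abca1* window holds 1 TATA box, 1 GC box and 1 E-box, and no 2 of these matches overlap, whereas this *Apoe* window holds 2 GC boxes. It was picked with the matches known: the window of the first *Apoe* start holds none of the 5 motifs searched, and that of the third overlaps the one shown and holds the same 2 GC boxes. Of 33465 RefSeq windows of this length, 12.9% hold the TATA box, 30.5% the GC box and 5.59% the E-box. Neither window holds AGGTCA, a repeat unit of nuclear receptor sites found in 14.1% of windows, or the AP-1 site TGANTCA, found in 6.34%. A match describes letters and does not show that a factor binds.

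The total count per library ranged from 13852516 to 16725355. Levels are given as CPM, counts scaled to an equal library total, after TMM factors that adjust for differences in composition between libraries. Labels and counts disagreed in part: libraries 4, 5 and 22, labelled female, had 269 to 328 CPM on the 48 genes of the Y chromosome, where libraries labelled male had 229 to 323 and libraries 6, 23 and 24 had 8.79 to 23.2. Library 3, labelled male, had 393 CPM on 4 X-linked genes that ran opposite to the Y counts, above the 149 to 156 of the other libraries labelled male. In addition, libraries 4, 19 and 24 stood apart on a set of 23 genes. These were chosen as at least 8-fold higher in libraries 4 and 19 than in the median of other libraries of that age. Libraries 4 and 19 are therefore high on the set by that choice, and their values describe it and do not test it. Library 24 had been left out of the p60 median beforehand. Library 4 had 16258 CPM on the whole set, library 19 had 6895 and library 24 had 2520.0, where the rest of the p21 libraries had 174 to 1931 and the rest of the p60 libraries 89.0 to 208. None of the 4 lipid genes is in the set, and the identity of its genes is not given by the files. Retinal cell type markers were not analysed here, because the files list identifiers without names.

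Across all 12 libraries, 3 of the 4 genes were significantly higher at p60 and *Lpl* did not pass the test (quasi-likelihood test of edgeR, with p-values adjusted by Benjamini-Hochberg over all genes and a threshold of 0.05). Of the 16069 genes tested, 62% differed between the ages and 31.7% were higher at p60, so 3 of 4 is to be read against that share. The higher calls were 5096 of 9969 with TMM factors and 7357 of 10261 when libraries were scaled by their totals, and the 3 genes passed either way. The same 3 genes were significantly higher in each line alone, where 25.6% of genes were higher in the WT line and 25.3% in the athymic line. The median log2 fold change of the 4 genes was 0.63, beside 0.02 over all genes tested.

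**Figure D1:**
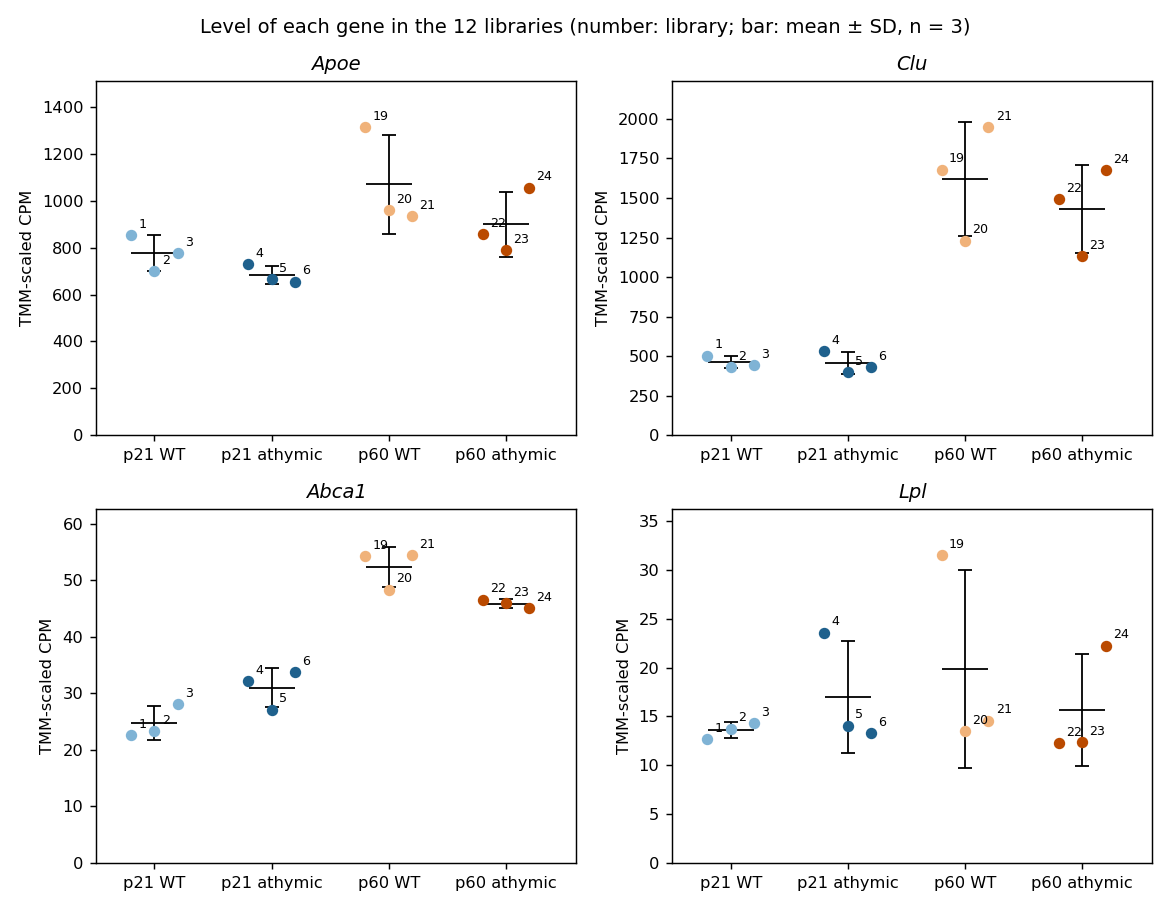
TMM-scaled CPM (y axis) of *Apoe*, *Clu*, *Abca1* and *Lpl* in the 12 libraries by age and line (x axis), with library numbers; bars give the mean ± SD of 3 libraries. *Clu* and *Abca1* at p60 lie wholly above p21, *Apoe* overlaps slightly, and *Lpl* is high in libraries 4, 19 and 24.

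*Clu* had the largest change of the 4 genes. At p21, the WT libraries 1, 2 and 3 had 503, 433 and 445 CPM and the athymic libraries 4, 5 and 6 had 534, 399 and 433. At p60, the WT libraries 19, 20 and 21 had 1679.6, 1230.3 and 1948 CPM and the athymic libraries 22, 23 and 24 had 1492, 1130.2 and 1677. Every p60 library lay above every p21 library in both lines, as was found for 19.8% of all genes tested. The mean rose from 458 ± 50.5 to 1526 ± 306 CPM (SD, n = 6 libraries per age), a log2 fold change of 1.73 (SE, the standard error, 0.121, and edgeR adjusted p = 2.52e-08), or 3.33-fold (95% confidence interval 2.78 to 3.98). *Clu* ranked 203 of 16069 genes by log2 fold change, and 3.92% of the genes that were significantly higher changed at least as much. The exact permutation test over libraries gave p = 0.00216 (two-sided), the smallest that 6 against 6 allows.

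The rise of *Clu* was of similar size in the lines. Its log2 fold change was 1.81 in the WT line (SE 0.149, edgeR adjusted p = 1.19e-05) and 1.65 in the athymic line (SE 0.152, edgeR adjusted p = 4.63e-05). The difference of the changes, athymic minus WT, was -0.16 on the log2 scale with a 95% confidence interval from -0.67 to 0.35. Without libraries 4, 19 and 24 the change over the remaining libraries was 1.73, and without libraries 3, 4, 5 and 22 it was 1.76. *Clu* varied more between libraries of the same condition than most genes of its level, with a pooled SD of 0.26 in log2 CPM against a median of 0.09 over 108 genes within 0.5 log2 units of its mean level. The change of *Clu* between the ages was several times this spread. *Apoe* and *Lpl* also varied more than most genes of their levels, with pooled SDs of 0.19 against a median of 0.09 and 0.48 against 0.15. *Abca1* was nearer its median, at 0.13 against 0.11.

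*Apoe* was abundant at both ages and rose less than *Clu*. At p21, libraries 1, 2 and 3 of the WT line had 852, 701 and 776 CPM and libraries 4, 5 and 6 of the athymic line had 728, 666 and 655. At p60, libraries 19, 20 and 21 of the WT line had 1314, 962 and 933 CPM and libraries 22, 23 and 24 of the athymic line had 857, 789 and 1056. Within each line every p60 library exceeded every p21 library. Across lines 5 of the 6 p60 libraries exceeded the highest p21 library and library 23 did not. The shares of all genes separated in these ways were not computed. A stricter split, every p60 library above every p21 library, was found for 19.8% of all genes tested, and *Apoe* did not meet it. In each line alone, the exact permutation test gave p = 0.1, the smallest that 3 against 3 allows. The mean went from 729.8 ± 74.2 to 985 ± 185 CPM (SD, n = 6), a log2 fold change of 0.43 (SE 0.0912, edgeR adjusted p = 9.49e-04), or 1.35-fold (95% confidence interval 1.18 to 1.54). This is less than 0.51, the median absolute log2 fold change of all significant genes. The exact permutation test over 6 libraries per age gave p = 0.00433 (two-sided).

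In the WT line alone, the log2 fold change of *Apoe* was 0.46 (SE 0.131, edgeR adjusted p = 0.0157), and in the athymic line alone it was 0.39 (SE 0.104, edgeR adjusted p = 0.0127). The calls in single lines were close to the threshold: leaving out library 2 gave an adjusted p of 0.0748 by edgeR in the WT line, and leaving out library 5 gave 0.0502 in the athymic line. Libraries 19 and 24 had the highest *Apoe* at p60, and library 19 had 1.48 times the mean of libraries 20 to 23. Without libraries 4, 19 and 24 the log2 fold change over the other 9 libraries was 0.30 (SE 0.0564, edgeR adjusted p = 6.27e-04), so the rise was smaller without them and still passed the test. The difference of the changes between the lines was -0.06 (95% confidence interval -0.47 to 0.34).

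By CPM per exonic length, the order of the apolipoproteins turned over between the ages. Per kilobase of exonic length, *Apoe* had 469 ± 47.7 and *Clu* 244 ± 26.9 CPM at p21 (SD, n = 6), and at p60 *Apoe* had 633 ± 119 and *Clu* 813 ± 163. The ratio of their counts per exonic length within a library does not depend on the scaling between libraries. The ratio of *Apoe* to *Clu* was 2.04, 1.95 and 2.11 in libraries 1 to 3 and 1.65, 2.01 and 1.83 in libraries 4 to 6. It was 0.944, 0.943 and 0.578 in libraries 19 to 21 and 0.693, 0.842 and 0.760 in libraries 22 to 24. Per exonic length, *Apoe* thus exceeded *Clu* in every p21 library and *Clu* exceeded *Apoe* in every p60 library. The log2 ratio changed by -1.30 from p21 to p60 (two-sided exact permutation test, p = 0.00216, n = 6 per age). It is 1 of 6 ratios between the genes that were computed. The ratios of *Clu* to *Abca1* and of *Clu* to *Lpl* gave the same p by this test. All rest on the same *Clu* counts as the rise given above. The change of the *Apoe* to *Clu* ratio does not depend on the lengths used. The order at one age does depend on them, and the ratios of 0.944 and 0.943 in libraries 19 and 20 lay close to 1. Among genes tested, ranked by CPM per kilobase, *Apoe* moved from ranks 75 to 97 at p21 to ranks 26 to 63 at p60, and *Clu* from ranks 184 to 257 to ranks 19 to 47.

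**Figure D2:**
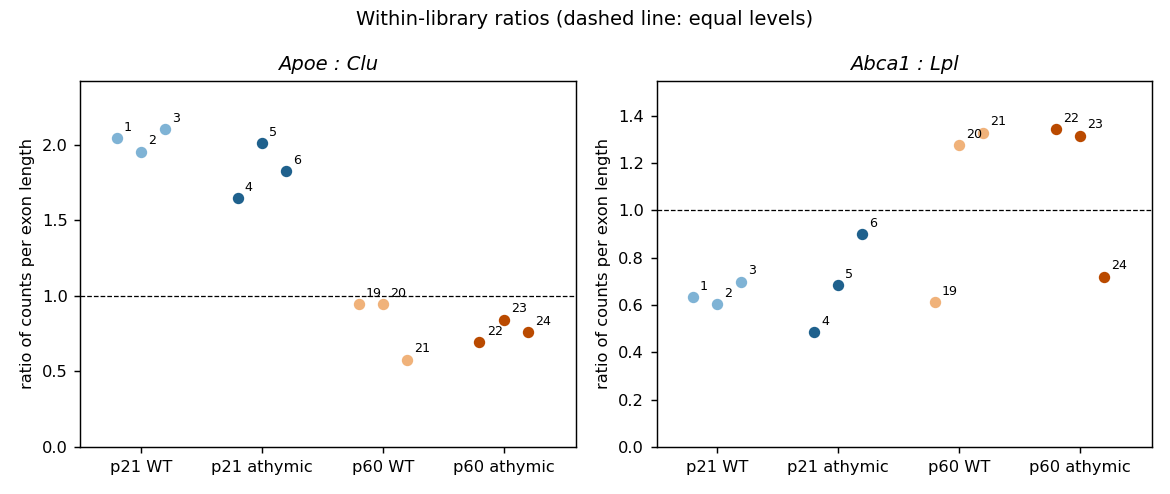
Ratio of counts per exonic length (y axis) of *Apoe* to *Clu* and of *Abca1* to *Lpl* in each library by age and line (x axis); points are libraries, numbered, and the dashed line marks equal levels. *Apoe* to *Clu* falls from above 1 in every p21 library to below 1 in every p60 library, whereas *Abca1* to *Lpl* is above 1 only in libraries 20 to 23.

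*Abca1*, the efflux transporter, was higher at p60 in both lines. At p21, the WT libraries 1, 2 and 3 had 22.6, 23.4 and 28.1 CPM (285, 345 and 372 counts) and the athymic libraries 4, 5 and 6 had 32.1, 27.1 and 33.7 (450, 363 and 528 counts). At p60, the WT libraries 19, 20 and 21 had 54.4, 48.4 and 54.5 CPM (824, 762 and 876 counts) and the athymic libraries 22, 23 and 24 had 46.6, 46.0 and 45.1 (788, 756 and 716 counts). Every p60 library lay above every p21 library, as was found for 19.8% of all genes tested. The athymic p60 libraries lay within 1.45 CPM of each other. The log2 fold change was 0.82 (SE 0.0978, edgeR adjusted p = 5.47e-06), or 1.77-fold (95% confidence interval 1.53 to 2.05), and the exact permutation test over 6 libraries per age gave p = 0.00216. It was 0.85 without libraries 4, 19 and 24.

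The rise of *Abca1* was 1.08 on the log2 scale in the WT line (SE 0.104, edgeR adjusted p = 3.18e-05) and 0.56 in the athymic line (SE 0.0849, edgeR adjusted p = 7.53e-04). The athymic value lay above WT at p21, 31.0 ± 3.44 against 24.7 ± 2.99 CPM, and below it at p60, 45.9 ± 0.728 against 52.4 ± 3.51 (SD, n = 3). The difference of the changes was -0.52 (95% confidence interval -0.82 to -0.22), with an unadjusted p of 0.00241 and an adjusted p of 0.212 by edgeR, so it did not pass the test over all genes. In that test, 1494 genes had an unadjusted p under 0.05 and 1 gene (0.00622%) passed the adjustment. The unadjusted interval excludes 0, but it is 1 of 4 such intervals read here. Without libraries 3, 4, 5 and 22, which left 1 athymic library at p21, the change in the athymic line was 0.42 with an adjusted p of 0.0657 by edgeR.

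*Lpl* was the least counted of the 4 genes and did not change significantly with age. At p21, libraries 1, 2 and 3 of the WT line had 12.7, 13.8 and 14.3 CPM (160, 203 and 189 counts) and libraries 4, 5 and 6 of the athymic line had 23.6, 14.1 and 13.3 (330, 188 and 208 counts). At p60, libraries 19, 20 and 21 of the WT line had 31.5, 13.5 and 14.6 CPM (478, 212 and 234 counts) and libraries 22, 23 and 24 of the athymic line had 12.3, 12.4 and 22.3 (208, 204 and 353 counts). The ages overlapped: 9 libraries lay between 12.3 and 14.6 CPM at both ages, and libraries 4, 19 and 24 lay above them. The log2 fold change was 0.21 (SE 0.244, 95% confidence interval -0.31 to 0.74, adjusted p = 0.474 by edgeR). The exact permutation test over 6 libraries per age gave p = 0.652.

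The high *Lpl* values fell in the libraries that stood apart on the set of 23 genes. *Lpl* was 1.73 times the mean of the other p21 libraries in library 4, and 2.39 and 1.69 times the mean of the other p60 libraries in libraries 19 and 24. A pattern with library 4 highest at p21 and libraries 19 and 24 highest at p60 was found for 697 of 16069 genes (4.34%). With each also at least 1.5-fold above the mean of the others, it was found for 291 genes (1.81%). Either way it was found for 1 of the 4 lipid genes, *Lpl*. The libraries were picked with earlier results known, so this describes *Lpl* and does not test it. Library 6, which had 1931 CPM on the set, had 13.3 CPM of *Lpl*, within the range of the other libraries. Without libraries 4, 19 and 24 the log2 fold change of *Lpl* was -0.04 (SE 0.0864, edgeR adjusted p = 0.712) over the other 9 libraries. In the WT line it was 0.54 (SE 0.291, edgeR adjusted p = 0.147), or 0.04 without library 19. In the athymic line it was -0.12 (SE 0.283, edgeR adjusted p = 0.752), and it was 0.18 without library 4, -0.48 without library 24 (adjusted p = 0.142 by edgeR) and -0.17 without both.

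**Figure D3:**
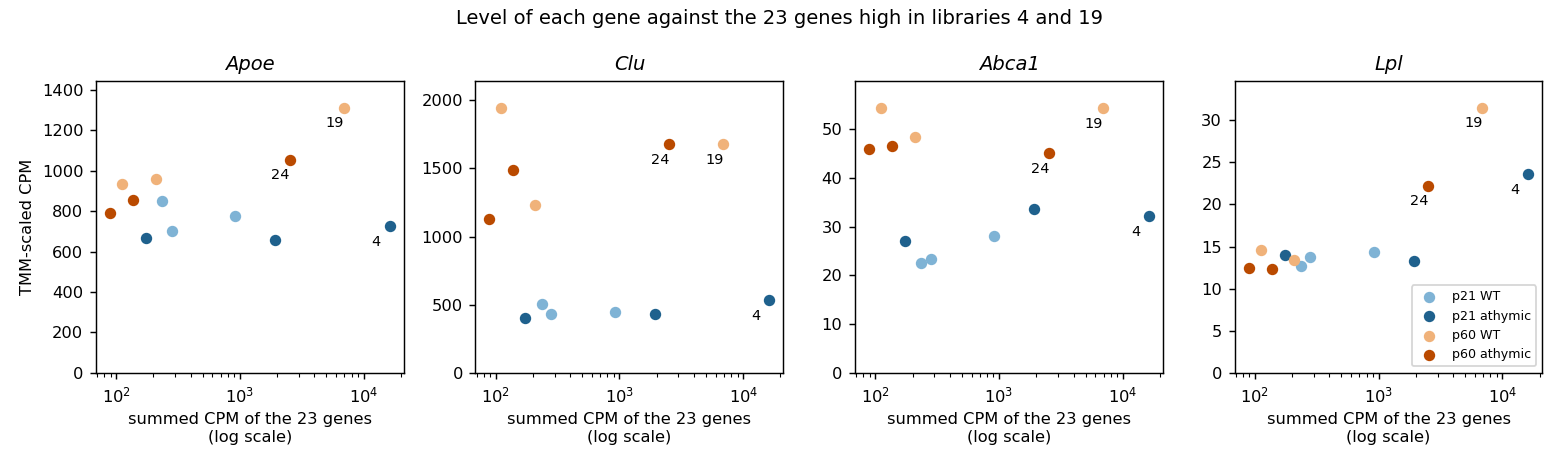
TMM-scaled CPM of each gene (y axis) against the summed CPM of the set of 23 genes (x axis, log scale); points are the 12 libraries, coloured by age and line, with libraries 4, 19 and 24 numbered. *Lpl* lies near 13 CPM except in these 3 libraries, whereas *Clu* and *Abca1* separate by age at any level of the set.

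The order of *Abca1* and *Lpl* at p60 depended on libraries 19 and 24. At p21, *Lpl* was higher per exonic length in every library. Per kilobase, *Abca1* had 2.69 ± 0.435 and *Lpl* 4.16 ± 1.12 CPM at p21, and at p60 *Abca1* had 4.75 ± 0.409 and *Lpl* 4.84 ± 2.10 (SD, n = 6), values that overlap at p60. The within-library ratio of *Abca1* to *Lpl* was between 0.484 and 0.901 at p21. At p60 it was 1.28, 1.33, 1.35 and 1.32 in libraries 20 to 23, and 0.612 and 0.720 in libraries 19 and 24. The log2 ratio was higher at p60 by 0.68 (two-sided exact permutation test, p = 0.026, n = 6 per age), 1 of 6 ratios between the genes that were computed. Both genes were far below the apolipoproteins at both ages, with ranks of 8889 to 12488 by CPM per kilobase among the 16069 genes tested.

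**Figure D4:**
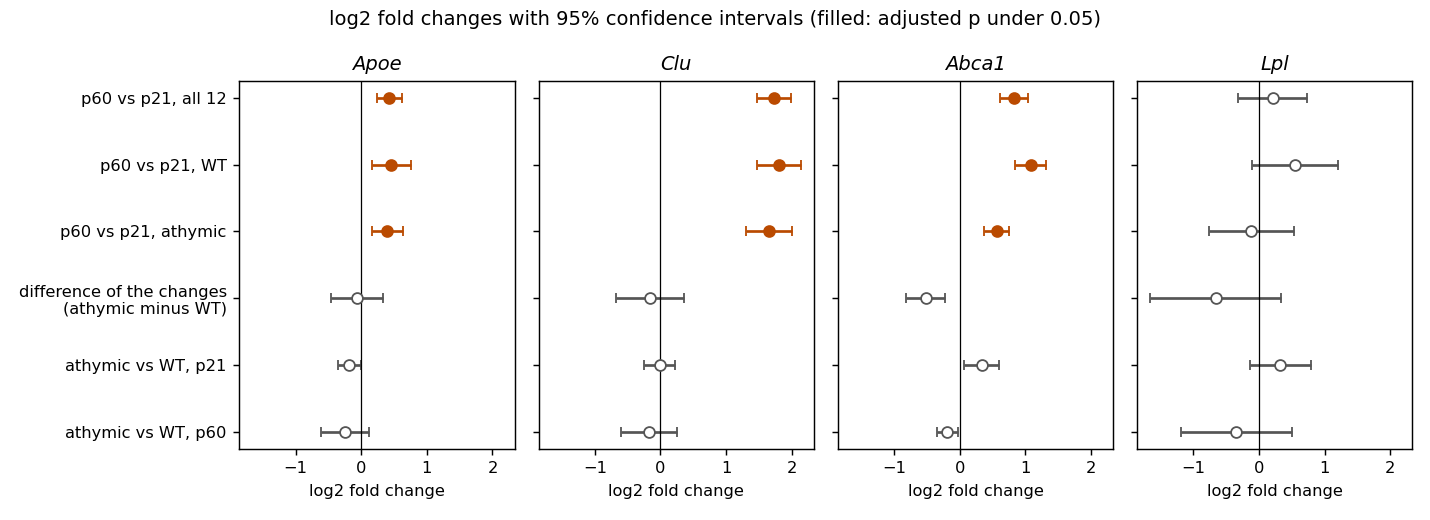
log2 fold changes (x axis) with 95% confidence intervals for each gene in the 6 comparisons (y axis); filled points had an adjusted p under 0.05 by edgeR. The age changes of *Apoe*, *Clu* and *Abca1* are filled in all libraries and in each line, and no difference between the lines is filled.

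Between the lines at one age, none of the 4 genes passed the test. At p21, 0 of 15225 genes differed between athymic and WT retinas by edgeR (0%), with 1936 at an unadjusted p under 0.05 and 140 by DESeq2. *Apoe* had a log2 difference of -0.18 (95% confidence interval -0.35 to -0.004, adjusted p = 0.379 by edgeR) and *Abca1* of 0.33 (0.07 to 0.60, adjusted p = 0.31 by edgeR). *Clu* had -0.01 (-0.25 to 0.23) and *Lpl* 0.32 (-0.14 to 0.79). At p60, 3 of 15557 genes differed (0.0193%), and the 4 genes had adjusted p-values by edgeR between 0.48 and 0.837. The log2 differences at p60 were -0.25 for *Apoe* (-0.61 to 0.11), -0.17 for *Clu* (-0.61 to 0.26), -0.19 for *Abca1* (-0.35 to -0.03) and -0.34 for *Lpl* (-1.19 to 0.50). The intervals differ in width, and a p that misses the threshold does not show equal levels in the lines. Without libraries 3, 4, 5 and 22, *Abca1* at p21 was 0.56 higher in the single remaining athymic library than in 2 WT libraries (adjusted p = 0.0053 by edgeR), a fit in which 1257 genes were called and the lone library is assumed to vary like the WT libraries.

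**Figure D5:**
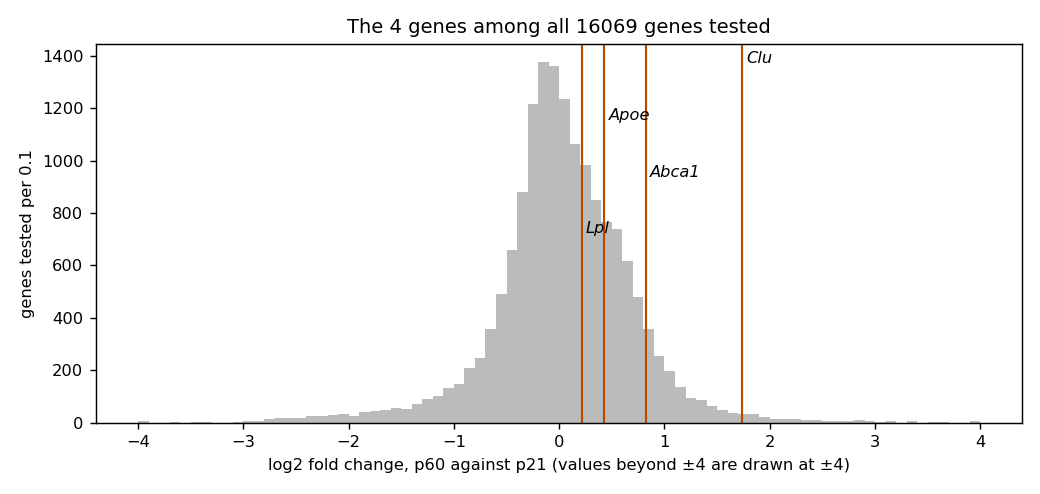
Number of genes tested (y axis, per 0.1) by log2 fold change between p60 and p21 over all 12 libraries (x axis), with lines at the 4 lipid genes. *Clu* at 1.73 lies in the upper tail, *Abca1* at 0.82 on the shoulder, and *Apoe* at 0.43 and *Lpl* at 0.21 within the main body.

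The genes with the pattern most like each of the 4 were sought by Pearson's r of log2 CPM over the 12 libraries, as a description, since all points share the split between the ages. For *Clu* the nearest was ENSRNOG00000008465 on chromosome 4 from 78450724 to 78458179 (Rnor_6.0), with r = 0.99 and a mean of 19.6 CPM at p21 and 81.4 at p60. For *Abca1* it was ENSRNOG00000046005 on chromosome 1 from 264059374 to 264072433, with r = 0.99 and a mean of 735.8 CPM at p21 and 1293 at p60. The 3 nearest genes of *Apoe* had r between 0.93 and 0.97. The 3 nearest genes of *Lpl* had r between 0.95 and 0.96, and all 3 were highest in library 4 at p21 and in libraries 19 and 24 at p60. Because they were chosen by likeness to *Lpl*, this restates the pattern of *Lpl* itself.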

How the data were processed

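Paired-end reads of poly(A)-enriched RNA from RCS rat retina made up 12 libraries. The authors used FastQC for read quality, STAR for mapping and featureCounts for counting, and the deposited counts are raw, 1 file per library. The submitters' processing notes name STAR 2.5.2b, Subread 1.5.2 and Rnor_6.0. The strand setting and the treatment of reads with several positions are not given in the sources used here.

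Genes with low counts were removed with filterByExpr of edgeR 4.0.16 (minimum count 10, minimum total 15), libraries were scaled with TMM factors and tested with edgeR's quasi-likelihood test in R 4.3.3 (Benjamini-Hochberg adjustment over all genes, threshold 0.05). The comparison of ages over 12 libraries had line as a covariate. The standard error of a change is its size over the square root of F. Single values were compared with exact permutation tests, where 3 against 3 libraries cannot go below p = 0.1. Levels of different genes were compared per exonic length. Replicates are libraries with their own numbers, the sources do not say that each is a separate animal, and p-values measure the spread between these libraries. Libraries of the same condition differed by more than counting noise (chi-square per degree of freedom 4.12 to 24.3 over 12 pairs). The test scripts were tested on simulated data in which few genes were changed, all upward. Scaling when many genes change, as between the ages here, was not tested by it.

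The 4 genes, the lists and the libraries left out were chosen with earlier results of these data known. Lists of other lipid transport genes and of cell type markers had been written by symbol and could not be applied, because no table at hand pairs the identifiers with symbols. The rule for naming genes then allowed the 4 genes in full and at most 2 further identifiers in each direction, out of the 3 genes most correlated with each of the 4 (mean log2 CPM of at least 1). The set of 23 genes was chosen after the data were seen. The alternatives were RLE factors, scaling to total counts, no filter, at least 10 counts in every library, DESeq2 1.42.0, models without line or of all 4 groups, leaving out each library, and leaving out libraries 3, 4, 5 and 22 or 4, 19 and 24. Plots were drawn with matplotlib 3.10.9.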

Additional observations from a re-analysis of the deposited data

Results flagged for a closer look

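At p21, library 4 had 23.6 CPM of *Lpl*, far above the other 5 libraries of that age (12.7 to 14.3), with a gap to the nearest library of 0.853 of the whole range. It was the 1 case above the cutoff of 0.625 among 8 groups of 6 libraries (4 genes at 2 ages). For normally distributed values, a single group passes that cutoff by chance about 1 time in 20. With 8 groups, which share libraries, passing it once is less unusual than that. The chance of a gap as large as 0.853 was not computed. The same library stood apart on the set of 23 genes, and the part of that set in the *Lpl* value was not tested.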

How the results depend on the processing

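No paired analysis was possible because the groups share no replicate numbers. The age calls of *Apoe*, *Clu* and *Abca1* over all 12 libraries held under all 8 other settings and in all 12 fits that left out 1 library. In the athymic line, leaving out libraries 3, 4, 5 and 22 left 1 p21 library and 1 of 4 genes called, with log2 fold changes of 0.48 for *Apoe* (adjusted p = 0.124 by edgeR), 0.42 for *Abca1* and 0.37 for *Lpl*. The same omission left 1 of 4 genes called between the lines at p21, *Abca1* at 0.56, and a difference of the age changes of 0.0081 for *Apoe*. Without libraries 4, 19 and 24, that difference was 0.028 and the age change of *Lpl* was -0.041. With scaling to total counts, *Lpl* in the athymic line was 0.067, and the median change of all genes over 12 libraries moved from 0.02 to 0.20; changes below that shift hold only for the scaling used. Leaving out 1 library at a time gave age changes for *Lpl* of -0.046 (without library 19) to 0.39 over all libraries and -0.48 to 0.18 in the athymic line, and for *Apoe* of 0.29 to 0.55 in the WT line and 0.25 to 0.47 in the athymic line. The *Apoe* difference of age changes was -0.19 to 0.11, that of *Clu* between lines at p21 -0.14 to 0.082, and that of *Lpl* at p60 -0.69 to 0.17. The *Abca1* difference of age changes stayed between -0.78 and -0.46 and passed in no setting (adjusted p of 0.0505 to 0.461). Apart from fewer libraries, the cause of these shifts was not tested. Over all genes, the number called moved by more than 1.5 times in 4 comparisons. For the difference of age changes it was 1, and 115 with no filter, 146 by DESeq2, 3 without libraries 4, 19 and 24, and 0 without libraries 3, 4, 5 and 22 or with at least 10 counts per library. Between the lines it was 0 at p21, and 282 with no filter, 140 by DESeq2 and 1257 without libraries 3, 4, 5 and 22. At p60 it was 3, and 11, 106 and 26 in the same order, and 179 without libraries 4, 19 and 24. In the athymic line it was 7740 for age, and 3342 without libraries 3, 4, 5 and 22. Leaving out 1 library gave up to 138 genes for the difference of age changes (without library 1), up to 85 at p21 (without library 1) and 0 to 61 at p60 (61 without library 24). The lists of other lipid genes and cell type markers were not run. *Lpl*, at 160 to 478 counts per library, had the least depth.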
